A study of Mus musculus with 6 samples.

Results

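The genes described here are 9 readers of N6-methyladenosine (m6A), the most common internal methyl mark of messenger RNA, and Alkbh5, an eraser of that mark. They were chosen by gene symbol, and 10 of the 57180 rows of the gene table carry these symbols, 1 row for each. Messenger RNA of 6 mouse lung samples was sequenced, 3 of wild-type genotype (WT) and 3 of the genotype FTO_OE, in which the m6A eraser FTO was overexpressed. Both groups were exposed to cigarette smoke, as a model of chronic obstructive pulmonary disease, so the smoke is common to all libraries and its effect is not measured. The sources used here do not say how or in which cells FTO was overexpressed, and give no strain, sex, age or length of exposure. They also do not state that the libraries are from different animals, and p-values then measure only the spread between these samples.

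Writers place m6A on nascent RNA, erasers remove it, and readers are the proteins that bind it and set the fate of the transcript. The cytoplasmic YTHDF proteins bind m6A through a YTH domain and are best known for recruiting the machinery that degrades RNA. YTHDC1 acts in the nucleus on splicing and export, YTHDC2 is a helicase known for its part in meiosis, and the IGF2BP proteins bind through KH domains and stabilise their targets. ALKBH5 and FTO are the known m6A erasers of mammals. In the lung the YTH readers, HNRNPA2B1 and the erasers are present in most cell types, and the IGF2BP family is best known from development and tumours. The comparison asked whether their transcript levels differed when FTO was overexpressed.

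The libraries held 16731850 to 21444907 counts. Fto stood between 66.2 and 69.9 normalised read counts (CPM, counts scaled to library size) in wild-type and between 650.1 and 740.8 CPM in FTO-overexpressing lungs, so each library had the Fto level its label called for. All 6 lung markers, Sftpc and Scgb1a1 among them, were detected in all 6 libraries. Their sum, most of it from Sftpc and Scgb1a1, ran from 41942 to 47432 CPM in wild-type and from 33332 to 40443 CPM in FTO-overexpressing libraries. Fitted fold changes were above 1 for 0 of the 6 genes. The groups did not overlap for 1 of the 6, beside 14.9% of all genes, and 0 of the 6 passed the test. Heart muscle markers (4 genes summed) ran from 62.7 to 465.5 CPM in wild-type and from 142.9 to 983.5 CPM in FTO-overexpressing libraries, highest in replicate 3 of the first and replicate 2 of the second group. Summed T cell markers (12 genes) ran from 89.9 to 124.8 CPM against 298.2 to 629.0 CPM. In bulk tissue, fewer cells of a type and less RNA per cell cannot be told apart.

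None of the 9 readers passed the test between wild-type and FTO-overexpressing lungs, and neither did Alkbh5. In edgeR's quasi-likelihood test across 16989 genes, 0 of the 10 genes passed an adjusted p of 0.05, where 0.0942% of all genes tested passed. At an unadjusted p under 0.05 the count was also 0 of 10, against 9.44% of all genes. DESeq2 and limma-voom called 0 of the 10 as well, where they called 424 and 5 of all genes tested. The groups overlapped for each of the 10 genes, beside 14.9% of all genes for which they did not. In a list of 10 genes, counts of 0 are near the shares of 9.44% and 14.9%. Fitted fold changes were above 1 for 4 members and below 1 for 6, with a median log2 fold change of -0.05, beside 0.01 over all genes tested. For 8 of the 10 genes the 95% interval lay wholly within 1.5-fold in either direction. For the other two, Igf2bp1 and Igf2bp3, the interval was wider, as it was for 41% of all genes. The fold change itself was past 1.5 for Igf2bp3 alone, 1 of 10, beside 8.38% of all genes. All 10 genes passed the filter on low counts, but Igf2bp3 did so through the FTO-overexpressing group, with 3 of 3 libraries above the level of 0.522 CPM against 1 of 3 wild-type libraries.

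**Figure D1:**
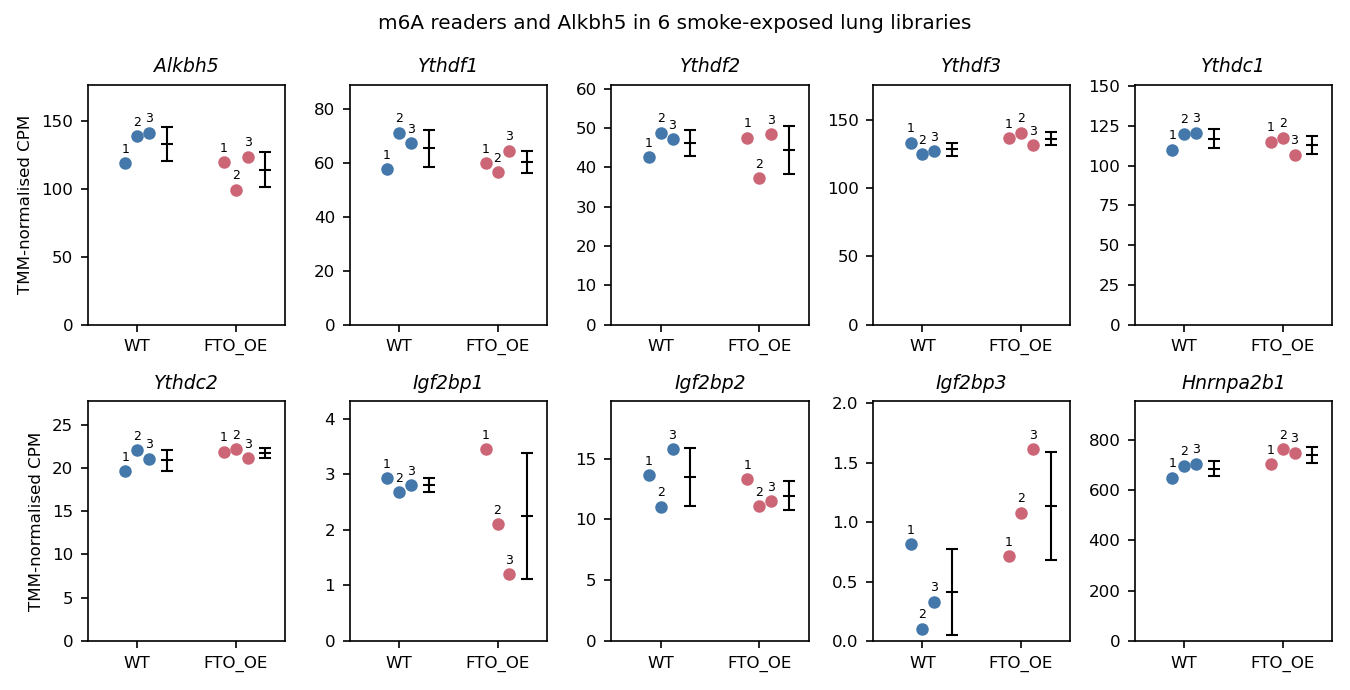
Normalised read counts (CPM, TMM scaling, axes from 0) of each gene in wild-type (blue) and FTO-overexpressing (red) lungs. Points are libraries with their replicate number, and bars give the mean and SD of 3 libraries. The groups overlap in each panel, and the FTO-overexpressing libraries spread widely for Igf2bp1, from 1.20 to 3.46 CPM.

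**Figure D2:**
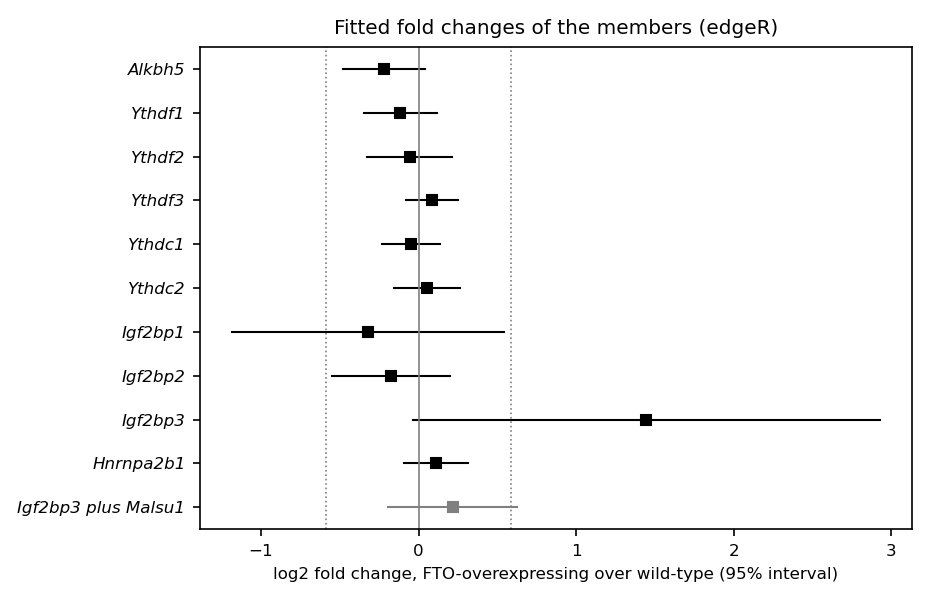
Fitted log2 fold changes (squares) with 95% intervals (lines) for each gene, FTO-overexpressing over wild-type, and in grey for the summed counts of Igf2bp3 and its neighbour Malsu1. Dotted lines mark 1.5-fold in each direction. The intervals all include 0, and that of Igf2bp3 runs from -0.03 to 2.93.

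Alkbh5, the eraser that acts on m6A in the nucleus beside FTO, was measured at 119.0, 139.1 and 141.7 CPM in the wild-type libraries and at 119.8, 99.6 and 123.9 CPM in the FTO-overexpressing ones. Wild-type replicate 1 lay inside the range of the other group, and FTO-overexpressing replicate 2 was the lowest of all 6. The means were 133.3 ± 12.4 and 114.4 ± 13.0 CPM (SD, n = 3 each). The fold change was 0.858 (95% interval 0.717 to 1.03; edgeR adjusted p = 0.618). Without wild-type replicate 1 the log2 fold change was -0.29, and without FTO-overexpressing replicate 2, the library with the most heart muscle counts, it was -0.13. Without that library and wild-type replicate 3, the library with the most heart muscle counts of its group, it was -0.08. This fit was chosen after the data were seen. It left out the highest wild-type value of Alkbh5, 141.7 CPM, and the lowest FTO-overexpressing one, 99.6 CPM. Leaving out these values moves the fold change towards 0 whatever their heart muscle counts. The part of heart muscle in the level of Alkbh5 was not tested. Per kilobase of transcript, Fto stood at 0.778 to 0.895 times the level of Alkbh5 in wild-type libraries. In FTO-overexpressing libraries this ratio was 8.94, 10.5 and 9.62, so Fto was the more abundant eraser transcript in those libraries. The size of the ratio rests on transcript lengths of 3564 bases for Fto and 5730 bases for Alkbh5. With coding lengths of 1506 and 1185 bases it would be lower in all libraries. The length of the overexpressed Fto transcript is not known. The pattern of Alkbh5 was compared with 13510 genes by the root mean square difference of centred log2 CPM over the 6 libraries. The nearest were Timm29, Wtip and Dand5, at 0.035, 0.040 and 0.044, where the median gene was at 0.215. They were picked for that nearness, so their small differences follow from the choice.

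The 3 YTHDF readers are close paralogs, and the part of their messages that is most alike encodes the start of the YTH domain, the fold that holds the methylated base. The stretches below show how far the deposited counts can tell the 3 genes apart. They are the 90-base coding windows, each within exon 4, that agree at the most positions, taken from GENCODE M21 transcripts on GRCm38 and printed in the sense direction. Ythdf1 is read from chr2:180911122-180911211 (minus strand), Ythdf2 from chr4:132204567-132204656 (minus strand) and Ythdf3 from chr3:16204900-16204989 (plus strand). Capitals mark the 23 positions at which the 3 genes are not all identical.
Ythdf1: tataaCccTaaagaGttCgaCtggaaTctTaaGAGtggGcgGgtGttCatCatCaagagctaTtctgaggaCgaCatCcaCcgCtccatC
Ythdf2: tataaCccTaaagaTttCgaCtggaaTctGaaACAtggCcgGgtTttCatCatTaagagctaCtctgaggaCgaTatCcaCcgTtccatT
Ythdf3: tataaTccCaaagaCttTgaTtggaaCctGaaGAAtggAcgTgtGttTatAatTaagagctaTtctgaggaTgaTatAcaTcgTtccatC

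Even in this window the differing bases are spread along the whole length. Over the full coding sequences 65.6% to 68.9% of aligned positions were identical, and the longest run shared by any pair was 22 bases, between Ythdf1 and Ythdf2. Any longer stretch of coding sequence thus differs between the 3 genes by at least 1 base. Of the 50-base windows of the Ythdf2 transcript, 8.55% also occur in the processed pseudogenes Gm6823 and Gm8401, which are listed at 0 in all 6 libraries.

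Ythdf1, known for its binding to translation factors as well as to decay factors, was at 57.5, 71.2 and 67.2 CPM in wild-type and at 59.9, 56.5 and 64.5 CPM in FTO-overexpressing lungs. Replicate 1 of the wild type was as low as the FTO-overexpressing libraries. The ratio was 0.924 (95% interval 0.786 to 1.09; edgeR adjusted p = 0.808). Ythdf2, which brings the CCR4-NOT deadenylase to methylated RNA, was at 42.6, 48.9 and 47.1 CPM against 47.6, 37.3 and 48.5 CPM. A single library, FTO-overexpressing replicate 2, lay below the others. The ratio was 0.962 (95% interval 0.797 to 1.16; edgeR adjusted p = 0.938), and without that library the log2 fold change turned from -0.06 to 0.06. Ythdf3, the third cytoplasmic reader, was at 133.5, 124.8 and 127.2 CPM against 136.7, 140.9 and 131.6 CPM. Here wild-type replicate 1 was above FTO-overexpressing replicate 3, and the other libraries were ordered by group. The ratio was 1.06 (95% interval 0.946 to 1.19; edgeR adjusted p = 0.793).

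The summed level of the YTHDF family was 233.7, 244.9 and 241.5 CPM in wild-type and 244.2, 234.7 and 244.6 CPM in FTO-overexpressing libraries, with means of 240.0 ± 5.78 and 241.2 ± 5.60 CPM (SD, n = 3 each; exact permutation test, two-sided, p = 0.7). The ranges of the groups nearly coincided. Because longer messages give more counts, a share of the summed counts is compared between libraries and not between genes. Ythdf3 held 57.1%, 51.0% and 52.7% of the counts in wild-type and 56.0%, 60.0% and 53.8% in FTO-overexpressing libraries. The share of Ythdf1 was 24.6%, 29.1% and 27.8% against 24.5%, 24.1% and 26.4%, a difference of -2.18 percentage points (exact permutation test, p = 0.2). That of Ythdf2 differed by -0.84 percentage points. Groups of 3 against 3 cannot give an exact p under 0.1, and over the 8 sums and shares of both reader families the Benjamini-Hochberg adjusted p was 0.7 for each.

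**Figure D3:**
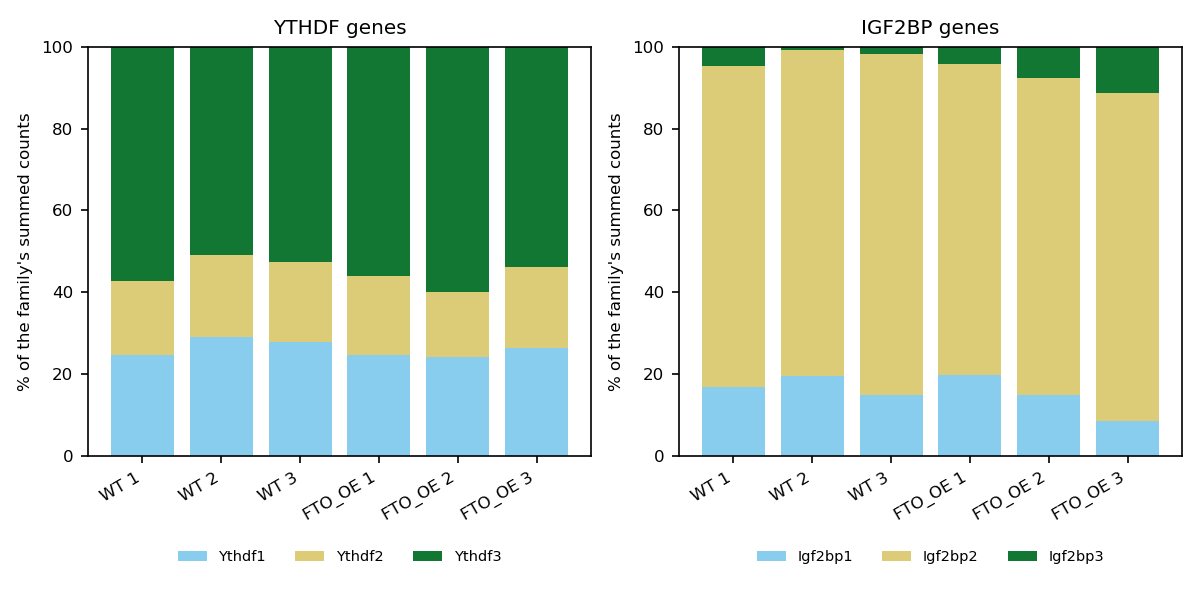
Share of the summed TMM-scaled counts (percent) that each gene of the YTHDF family (left) and the IGF2BP family (right) held in each library. Shares of the YTHDF genes are similar in the 6 libraries, and that of Igf2bp3 runs from 0.760% in wild-type replicate 2 to 11.3% in FTO-overexpressing replicate 3.

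The remaining YTH readers were close to a ratio of 1. Ythdc1, the nuclear reader that guides splicing and export of methylated RNA, was at 110.0, 120.2 and 120.9 CPM in wild-type and 115.2, 117.6 and 106.9 CPM in FTO-overexpressing lungs. The ratio was 0.967 (95% interval 0.853 to 1.10; edgeR adjusted p = 0.913). Its lowest library was FTO-overexpressing replicate 3 and its next lowest wild-type replicate 1, so the groups were interleaved. In the GENCODE annotation, 20.1% of the 50-base windows of its transcript also belong to the overlapping gene Gm43055, annotated as a long noncoding RNA and listed at 0 in all 6 libraries. Ythdc2, the RNA helicase reader, was at 19.6, 22.0 and 21.1 CPM against 21.8, 22.2 and 21.1 CPM. The fold change was 1.04 (95% interval 0.899 to 1.20; edgeR adjusted p = 0.913). Replicates 2 and 3 of the groups lay side by side.

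Hnrnpa2b1, an abundant nuclear RNA-binding protein described as a reader in the processing of primary microRNAs, was at 649.5, 697.1 and 705.2 CPM in wild-type and 703.6, 762.9 and 748.2 CPM in FTO-overexpressing lungs. The groups met at wild-type replicate 3 and FTO-overexpressing replicate 1, which differed by less than the spread within either group. The means were 683.9 ± 30.1 and 738.3 ± 30.9 CPM (SD, n = 3 each). The fold change was 1.08 (95% interval 0.937 to 1.24; edgeR adjusted p = 0.781). Of its 50-base windows, 2.23% also occur in the processed pseudogene Gm5778, which had at most 1 count in any library.

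IGF2BP readers are known as fetal proteins that are mostly silent in adult tissue, apart from Igf2bp2. The stretches below, again the 90-base coding windows that agree at the most positions, lie in exon 6 of each gene and encode a KH domain with the glycine-rich loop that grips RNA. Igf2bp1 is read from chr11:95973944-95974033, Igf2bp2 from chr16:22081739-22081828 and Igf2bp3 from chr6:49117157-49117246, all on the minus strand of GRCm38 and printed in the sense direction. Capitals mark the 28 positions that are not identical in all 3 genes.
Igf2bp1: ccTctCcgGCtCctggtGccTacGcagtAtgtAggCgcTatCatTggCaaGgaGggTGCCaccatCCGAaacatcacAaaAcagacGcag
Igf2bp2: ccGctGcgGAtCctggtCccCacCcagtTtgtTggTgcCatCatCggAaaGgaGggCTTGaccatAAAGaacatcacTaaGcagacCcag
Igf2bp3: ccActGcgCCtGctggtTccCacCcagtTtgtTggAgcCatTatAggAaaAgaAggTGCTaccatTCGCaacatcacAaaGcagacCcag

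The longest run shared by a pair of these coding sequences was 20 bases, so here too any longer stretch differs between the genes. Igf2bp2, the family member of adult tissue, was at 13.7, 11.0 and 15.8 CPM in wild-type and 13.3, 11.1 and 11.5 CPM in FTO-overexpressing lungs. Wild-type replicate 2 was the lowest library of all, and the ratio was 0.887 (95% interval 0.684 to 1.15; edgeR adjusted p = 0.820). Igf2bp1, which is best known in the embryo, was at 2.93, 2.68 and 2.81 CPM against 3.46, 2.10 and 1.20 CPM. The wild-type libraries lay close together, and the FTO-overexpressing ones lay on both sides of them. The ratio was 0.802 (95% interval 0.441 to 1.46; edgeR adjusted p = 0.863). The summed level of the family was 16.7 ± 2.62 and 15.3 ± 1.85 CPM (SD, n = 3 each; exact permutation test, two-sided, p = 0.7).

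Igf2bp3, the member with the highest fold change, was also the one with the fewest counts. Its deposited values were 15.03, 2.13 and 6.09 counts in wild-type and 13.67, 19.25 and 34.77 counts in FTO-overexpressing libraries, or 0.813, 0.105 and 0.330 CPM against 0.711, 1.08 and 1.61 CPM. Wild-type replicate 1 lay above FTO-overexpressing replicate 1, and the other libraries were ordered by group. The means were 0.416 ± 0.362 and 1.14 ± 0.454 CPM (SD, n = 3 each), a fold change of 2.72 (95% interval 0.976 to 7.60; edgeR adjusted p = 0.546). The log2 fold change of 1.45 became 2.37 without wild-type replicate 1 and 0.99 without wild-type replicate 2.

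The counts of Igf2bp3 are not independent of the gene beside it. In GENCODE M21, the last exon of Igf2bp3 on the minus strand and the 3′ end of Malsu1 on the plus strand overlap over 1529 bases (GRCm38 chr6:49085223-49086751). The overlap is 35.2% of the Igf2bp3 transcript and 54.2% of that of Malsu1, which encodes a factor for the assembly of the mitochondrial ribosome, and it lies outside the coding part of both. The deposited values of Malsu1 were 132.97, 130.87 and 104.91 in wild-type and 139.33, 108.75 and 170.23 in FTO-overexpressing libraries. Neither gene had a whole number in any library, but the sums were 148, 133 and 111 against 153, 128 and 205. Among 9335 rows with a value that was not whole, Malsu1 was the only row that completed those of Igf2bp3 to whole numbers in all 6 libraries, within 0.01. The values of these rows are thus portions of a whole number of reads. The library kit keeps the strand, but whether the counting used it is not stated, and without it reads of the overlap cannot be told apart.

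How many of the reads of Igf2bp3 came from the overlap is not recorded in the table. Its portion of the sum was 10.2%, 1.60% and 5.49% in wild-type and 8.93%, 15.0% and 17.0% in FTO-overexpressing libraries. The sum, which does not depend on the division, was 8.02, 6.99 and 6.11 CPM against 7.77, 7.28 and 9.45 CPM. The groups overlapped, and the fold change of the summed counts was 1.16 (95% interval 0.874 to 1.54; edgeR adjusted p = 0.790). Malsu1 by its own row was 1.06-fold higher (95% interval 0.807 to 1.40; edgeR adjusted p = 0.931). The fit to the sum was chosen after the data were seen. Since Malsu1 supplied most of the sum, a difference of Igf2bp3 alone would be diluted there. Of the other members, Ythdc1 had values that were not whole, by at most 0.40 of a count, and no single row completed them. The remaining 8 had whole values in all libraries.

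**Figure D4:**
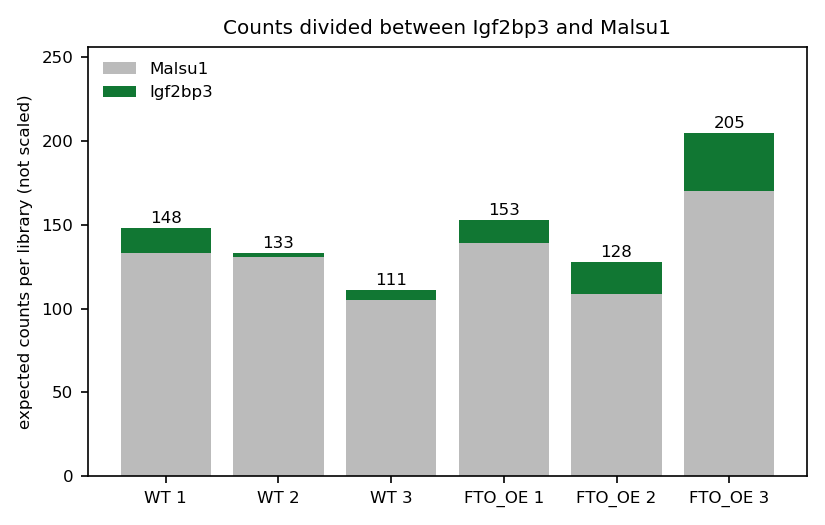
Deposited expected counts (not scaled to library size, axis from 0) of Malsu1 (grey) and Igf2bp3 (green) in each library, stacked, with the sum above each bar. The sums are whole numbers from 111 to 205, and Igf2bp3 holds between 1.60% and 17.0% of them.

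T cell and cell cycle markers differed between the groups of libraries in the direction of the fold change of Igf2bp3. Summed T cell markers were at 124.8, 112.2 and 89.9 CPM in wild-type and at 298.2, 399.7 and 629.0 CPM in FTO-overexpressing libraries, and for all 12 genes each FTO-overexpressing library was above each wild-type one, where 14.9% of all genes had groups that did not overlap. Of these 12 genes, 3 passed the edgeR threshold, namely Lck, Cd8a and Cd8b1, where 0.0942% of all genes passed. Summed cell cycle markers (12 genes) were at 128.3, 176.9 and 106.7 CPM against 245.6, 379.8 and 432.6 CPM, also apart for all 12 genes beside the same 14.9%, and 0 of the 12 passed. Within the FTO-overexpressing group the order of the libraries was the same for Igf2bp3 and both sums. It was also the order of the summed skeletal muscle markers (4 genes), at 6.35, 25.4 and 64.8 CPM. Summed erythroid markers (5 genes) had the reverse order, at 34063, 17444 and 3681 CPM. So had summed mesothelium markers (4 genes), at 18.5, 14.2 and 9.50 CPM. In the wild type the orders of Igf2bp3, the T cell sum and the cell cycle sum all differed. Replicate 2 was the lowest for Igf2bp3, at 0.105 CPM, and the highest for the cell cycle sum, at 176.9 CPM. The thymocyte genes Rag2 and Ptcra were at 0 in all 6 libraries, and Rag1 and Dntt were at most at 0.055 and 0.315 CPM. The part of T cells or dividing cells in the level of Igf2bp3 was not tested. Igf2bp3 held 2.13 to 34.77 counts a library, as portions of a sum with Malsu1. It passed the filter on low counts through the FTO-overexpressing group, and it did not pass the test. Its direction and its order of libraries rest on these few counts. Summed B cell markers (4 genes) ran from 42.4 to 112.1 CPM against 69.7 to 81.8 CPM. The genes with the pattern nearest to Igf2bp3 among 13511 were Ifi214, Txk and Samd3. Their root mean square differences were 0.208, 0.276 and 0.315 in log2 CPM, where the median gene was at 1.01. They were picked for the smallest differences from these same values, so their place under the median gene follows from the choice. Ifi214 ran from 0.578 to 2.22 CPM in wild-type and from 2.95 to 5.40 CPM in FTO-overexpressing libraries.

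Between genes, levels are compared as CPM per kilobase of the principal GENCODE transcript, as means over all 6 libraries. Hnrnpa2b1 was the highest at 427.9 CPM per kilobase, followed by Ythdc1 at 38.9, Ythdf3 at 26.0, Alkbh5 at 21.6 and Ythdf1 at 19.7. Ythdf2 stood at 11.0, Igf2bp2 at 3.26, Ythdc2 at 2.95, Igf2bp1 at 0.302 and Igf2bp3 at 0.178 CPM per kilobase. The ranges over libraries overlapped between Ythdf3 and Alkbh5, Alkbh5 and Ythdf1, Igf2bp2 and Ythdc2, and Igf2bp1 and Igf2bp3, so those neighbours are not ordered beyond their spread. With division by coding length in place of transcript length, Alkbh5 and Ythdc1 exchanged places and the other genes kept theirs.

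Among the other genes of the pathway, Fto was the one that passed the test. Of 12 writer genes, 0 passed the edgeR threshold in either direction, and their median log2 fold change was 0.03. Virma, the scaffold of the methyltransferase complex, was at 67.3, 71.4 and 71.2 CPM in wild-type and at 76.5, 78.0 and 81.7 CPM in FTO-overexpressing libraries. Its groups did not overlap, which was so for 2 of the 12 writers, beside 14.9% of all genes. The fold change was 1.12 (edgeR adjusted p = 0.507). Rbm15, which guides the complex to RNA, was at 0.903-fold (edgeR adjusted p = 0.696). Of 8 genes of the AlkB dioxygenase family, Fto among them and Alkbh5 left out, 1 was higher and 0 were lower. The 1 was Fto, at 10.05-fold (edgeR adjusted p = 1.45e-05). Fto is the overexpressed gene, so its call follows from the design and is not a result about the family. None of the other genes of this list passed. For comparison, 0.0765% of all genes were called higher and 0.0177% lower.

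Partners of the readers were tested as further lists. Of 12 decay partners, which are CCR4-NOT subunits and other factors that act with the YTHDF and YTHDC2 proteins, 0 passed, with a median of 0.02. Pabpc1, the cytoplasmic poly(A)-binding protein, was at 415.2, 399.0 and 383.0 CPM in wild-type and at 478.5, 416.1 and 514.1 CPM in FTO-overexpressing libraries. Its groups did not overlap, which was so for 1 of the 12 decay partners, beside 14.9% of all genes. The fold change was 1.18 (95% interval 1.00 to 1.38; edgeR adjusted p = 0.529). The exonuclease gene Xrn1, whose product binds YTHDC2, was at 1.10-fold (edgeR adjusted p = 0.685). Of 6 nuclear partners of YTHDC1 and HNRNPA2B1, 0 passed, with a median of 0.02. The splicing factor gene Srsf10 was at 0.931-fold and Dgcr8, a subunit of the microRNA processor, at 1.07-fold, with edgeR adjusted p of 0.853 and 0.871.

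Among 13 other proteins associated with m6A, 0 passed, with a median of 0.03. Fxr2, a relative of the fragile X protein, was at 0.895-fold and the stress granule gene G3bp1 at 1.06-fold. Their edgeR adjusted p were 0.597 and 0.806. In both the groups did not overlap, which was so for 2 of the 13 genes, beside 14.9% of all genes. Of 8 fetal genes often studied together with the IGF2BP family, 5 had enough counts to be tested and 0 of these passed, with a median of 0.21. That median was 0.07 without FTO-overexpressing replicate 3 and 0.40 without wild-type replicate 2. Lin28a, a fetal RNA-binding protein, was at 1.30, 1.94 and 1.60 CPM against 2.49, 1.08 and 3.64 CPM, lowest and highest within the FTO-overexpressing group (edgeR adjusted p = 0.766). Hmga1, a chromatin protein of growing cells, was at 1.13-fold (edgeR adjusted p = 0.674). Its groups did not overlap, which was so for 1 of the 5 genes tested, beside 14.9% of all genes. Lin28b was at 0 in all 6 libraries.

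**Figure D5:**
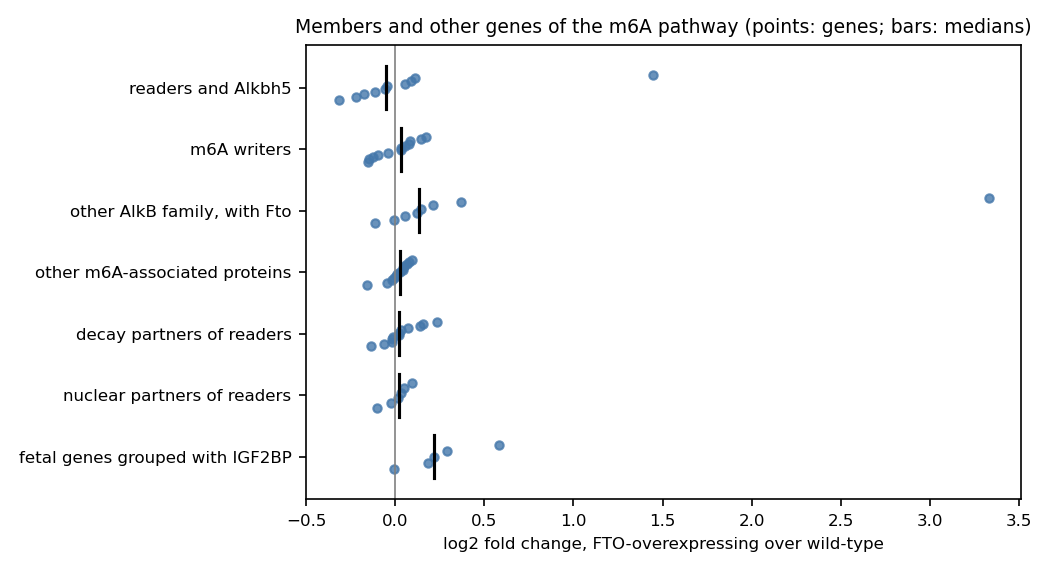
Log2 fold changes of the genes tested, FTO-overexpressing over wild-type, for the readers with Alkbh5 and for 6 further lists of the pathway. Points are genes and vertical bars are list medians. Fto stands alone at 3.33, Igf2bp3 at 1.45, and the list medians lie between -0.05 and 0.21.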

How the data were processed

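Per the labels' protocols, RNA was extracted with TRIzol and libraries were made with a stranded kit for messenger RNA. The submitters' processing notes name fastp, HISAT2 and StringTie. The sources used here do not give the counting program, its strand setting, the genome build or the annotation. The authors deposited expected counts per gene, not scaled to library size. They were rounded to whole numbers and tested with edgeR 4.0.16 in R 4.3.3 (filterByExpr, TMM scaling, quasi-likelihood F-test, group as the only term), with Benjamini-Hochberg adjustment over 16989 genes and a threshold of 0.05. Levels are TMM-normalised CPM, and intervals are 95%. Rows without a gene symbol held 0.119% to 0.143% of the counts. No library was a duplicate of another of its group (28.1 to 48.7 for chi-square divided by its degrees of freedom), and intervals cover the spread between libraries. Some pairs across the groups were more alike than any pair within a group. They were replicate 1 of each group (20.9), and wild-type replicate 3 with FTO-overexpressing replicate 2 (26.9).

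Transcript sequences, lengths and coordinates came from GENCODE M21 (GRCm38), matched by gene symbol, which need not be the annotation the authors used. Shared sequence was searched in windows of 50 bases on both strands. Alternatives were other scalings and filters, a replicate block, the omission of globin, immunoglobulin and mitochondrial genes or of single libraries, limma-voom (limma 3.58.1) and DESeq2 1.42.0. The procedure was tested on simulated data. The changes planted there were larger than those fitted for the members other than Igf2bp3, and Igf2bp3 was too low to be among the genes changed. Named were the 10 genes, Fto, and in each further list of the pathway the genes past the threshold or the 2 with the smallest p. Cell type markers were given mostly as sums, their single genes were not all named by this rule, and not all of their lists are shown. For Igf2bp3 and Alkbh5 the 3 genes with the nearest pattern and an average log2 CPM of at least 1 were named too, leaving out predicted loci. Malsu1, Gm43055, Gm6823 and Gm8401 were chosen after their values were seen. The members and lists were chosen with earlier results of these data known.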

Additional observations from a re-analysis of the deposited data

How the results depend on the processing

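Of the 10 genes, 0 passed an adjusted p of 0.05 under any of 17 alternatives. Of 159 fold changes refitted, 156 kept their direction and 0 passed the threshold, while 7 had an unadjusted p under 0.05, of which 5 were for Igf2bp3. Without 1 library, Ythdf2 ran from -0.12 to 0.06, above 0 when FTO-overexpressing replicate 2 was left out, and Igf2bp2 from -0.30 to -0.04. The others that turned were, in a fit chosen after seeing the data without wild-type replicate 3 and FTO-overexpressing replicate 2, Ythdf2 (0.070) and Igf2bp2 (0.0067). The number of all genes called moved from 16 to 287 without a filter, 424 with DESeq2, 31 without globin, immunoglobulin and mitochondrial genes, 5 with limma-voom, 2 with the replicate block and 1 without those 2 libraries. Leaving out 1 library gave 1 to 49 calls. Replicate numbers did not pair the libraries (correlations of deviations of 0.108, -0.308 and -0.308), and the replicate block changed no call among the 10 genes. Without 1 library, the log2 ratio of the summed YTHDF level ran from -0.0070 to 0.027, and the difference in share, in percentage points, from -1.55 to 0.41 for Ythdf2 and from -5.45 to 0.24 for Igf2bp1. The Igf2bp1 log2 fold change ran from -0.77 without FTO-overexpressing replicate 1 to -0.01 without replicate 3. The medians of the 5 lists of writers, AlkB genes, other m6A proteins and partners ran from -0.04 to 0.16 without 1 library, and the sign of 4 of them turned in at least 1 such fit. The causes were not tested. Igf2bp1 and Igf2bp3 could not be tested with a mean of at least 50 counts required, and at 2 to 35 counts a library the depth limits what can be said of Igf2bp3.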
